A study of Homo sapiens with 16 samples.

Results

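The sterol and fatty acid synthesis genes described here are 31 genes of the pathway governed by the sterol regulatory element-binding proteins (SREBPs). They comprise 7 genes of the mevalonate steps, 10 of the steps from squalene to cholesterol, 6 of sterol sensing, transcription and sterol transport, and 8 of fatty acid synthesis, elongation and desaturation. The genes were taken by symbol from a list that was chosen with earlier results of these data known. All 31 were present in the count table of 23669 genes, and all 31 were among the 15520 genes (65.6%) that passed the filter on low counts. Poly(A) RNA was sequenced from HCT116, an established human colorectal carcinoma cell line, in 4 derivatives. Lines shNT, shTIP60 and shCDK8 stably expressed an shRNA. It was non-targeting in shNT, aimed at TIP60 (product of KAT5, a histone acetyltransferase) in shTIP60, and aimed at CDK8 (a Mediator kinase) in shCDK8. The HIF1A-null line (HIF1A-/-) lacked HIF1A, the gene of the oxygen-regulated subunit of the transcription factor HIF1. Each line was kept in normoxia (21% oxygen) or in hypoxia (1% oxygen for 24 h), in the same serum-containing medium. Each of the 8 groups had 2 libraries, which the series design gives as independent biological replicates, called A and B here by the order of their library numbers. Only 1 line was available per target and the labels name no shRNA for HIF1A-null, so loss of the target cannot be told apart from effects of the clone, the vector or off-target binding.

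SREBPs are made as membrane proteins of the endoplasmic reticulum, bound to the escort protein SCAP. When sterols are plentiful, INSIG proteins hold the SCAP-SREBP complex in place; when sterols fall, SCAP carries SREBP to the Golgi, where proteases release the part that enters the nucleus and activates genes of cholesterol and fatty acid synthesis. Several of the enzymes on the way from lanosterol to cholesterol, and the desaturases, consume molecular oxygen. INSIG1 and SREBF2 are themselves SREBP targets, which makes INSIG1 a common readout of SREBP activity.

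Libraries held 26620086 to 39401494 counts. Levels are given as CPM, counts relative to the library total scaled with trimmed mean of M-values factors, for libraries A and B in that order, and 3 counts corresponded to 0.0716 to 0.112 CPM. Changes are log2 fold changes ± SE with p-values of edgeR's quasi-likelihood test adjusted by Benjamini-Hochberg over all 15520 genes, and a gene was called at an adjusted p under 0.05. The targets were lower in their lines: CDK8 was at 5.45 to 6.8 CPM in shCDK8 against 24.8 to 28.3 CPM in shNT, and KAT5 at 19.1 to 22 CPM in shTIP60 against 84.8 to 93.5 CPM in shNT. HIF1A was at 13 and 14.1 CPM in HIF1A-null normoxia against 107 and 108 CPM in shNT, but at 40.1 and 57.6 CPM in HIF1A-null hypoxia against 61.2 and 70.5 CPM in shNT. Which exons these reads covered is not visible in gene counts. Epithelial markers such as EPCAM, KRT8 and KRT18 summed to 4098 to 11340 CPM over 7 genes, while those of leukocytes (4 genes), endothelium (3) and hepatocytes (3) summed to at most 0.645, 2.89 and 1.97 CPM. Of 5 fibroblast markers, COL1A1 was at 21.5 to 81.9 CPM and the other 4 at 0.184 CPM or less, with LUM at 0 throughout. In bulk libraries, fewer cells with a transcript and less transcript per cell cannot be told apart.

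How many sterol and fatty acid genes rose or fell in hypoxia varied between the lines. In shNT cells 6 of the 31 rose and 9 fell, with a median log2 change of -0.19, against 20.7% of all genes rising and 20.0% falling. In shTIP60 cells 17 rose and 1 fell (median 0.55; 19.4% and 19.8% of all genes). In shCDK8 cells 6 rose and 1 fell (median 0.31; 13.8% and 11.0% of all genes). In HIF1A-null cells 24 rose and 2 fell, with a median of 1.17, against 18.9% and 19.1% of all genes. The median over all genes lay between -0.02 and 0.00 in each line. The comparison asked how cells with each alteration answered low oxygen. In every one of these calls, both libraries in hypoxia lay outside the range of both in normoxia. This was not particular to called genes: in shNT hypoxia lay above normoxia for 9 members and below it for 12. The share of all genes without overlap was not counted. 6 genes rose in all 4 lines: the sterol sensors INSIG1 and INSIG2, the transcription factor gene SREBF2, the sterol carrier gene STARD4, the acetyl-CoA synthetase gene ACSS2 and the stearoyl-CoA desaturase gene SCD. Another 6 fell in shNT and rose in HIF1A-null: HMGCS1, IDI1, ACAT2, FDFT1, NSDHL and ACACA. MVK, FDPS, ACLY and FASN rose and PMVK and TM7SF2 fell in HIF1A-null cells, and these genes were called in none of the other 3 lines. LSS and FADS2 were called in no line. How many of all genes share these patterns across lines was not counted. The mean level was highest in HIF1A-null hypoxia for 25 of the 31 genes and lowest in shTIP60 normoxia for 14. Groups were not ranked in this way for all genes. Scaling by library totals alone shifted the median of all genes to -0.20 in shNT, -0.23 in shTIP60, -0.16 in shCDK8 and -0.28 in HIF1A-null. Then 6 members rose and 14 fell in shNT, where 13.6% of all genes rose and 29.7% fell. In shTIP60 11 rose and 5 fell (12.2% and 31.3% of all genes), in shCDK8 6 and 3 (9.32% and 19.9%), and in HIF1A-null 22 and 4 (9.57% and 33.1%). Tested against a 1.5-fold change, 3, 7, 4 and 20 members were called in these lines, all of them higher in hypoxia, against 7.20%, 6.55%, 3.06% and 5.53% of all genes called higher. Without shNT normoxia library A fewer members were called in shNT than these 15, and fewer of all genes were called as well.

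RefSeq promoters (GRCh38.p14, 250 bases before to 50 after the annotated start) were found for 27 of the 31 genes, and not for ACAT2, FASN, FDFT1 and SQLE. They were searched on both strands for CCAAT, the box bound by NF-Y, a partner of SREBPs, for TCACNCCAC, a form of the sterol regulatory element (SRE), for ACGTG, the core of the hypoxia response element, and for CACGTG, an E-box that contains ACGTG and is counted with both. CCAAT was in a promoter of 20 of the 27 genes (74.1%), against 39.7% of 27305 genes and 34.6% of all 35116 promoters of that length. ACGTG was in 9 of 27 (33.3%, against 24.9% of genes and 21.4% of promoters), CACGTG in 3 (INSIG1, LSS and SCAP; 11.1%, against 8.77% and 7.26%), and TCACNCCAC only in SREBF2 (3.70%, against 1.39% and 1.13%). Of the 20 genes with a promoter that rose in HIF1A-null hypoxia, 16 held CCAAT, as did 4 of the other 7. These are matches of letters and not measured binding.

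The 250 bases before the start are shown for 6 genes, chosen after their values were seen. They are INSIG1 and INSIG2 because their responses diverged in HIF1A-null cells, SREBF2 for its SRE, MSMO1 and MVD for repeated CCAAT boxes beside large responses, and ELOVL6 because it was called lower in 3 lines. Each is written from 5′ to 3′ along the gene's strand, with matches to CCAAT, TCACNCCAC or ACGTG, or to their reverse complements, in capitals.
INSIG1 (chr7:155297628-155297877, plus strand): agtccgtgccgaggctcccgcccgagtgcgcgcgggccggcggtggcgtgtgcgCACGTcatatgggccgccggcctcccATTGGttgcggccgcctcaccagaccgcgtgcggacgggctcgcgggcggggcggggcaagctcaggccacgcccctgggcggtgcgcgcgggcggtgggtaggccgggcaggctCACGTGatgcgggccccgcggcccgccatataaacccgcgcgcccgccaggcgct
INSIG2 (chr2:118088221-118088470, plus strand): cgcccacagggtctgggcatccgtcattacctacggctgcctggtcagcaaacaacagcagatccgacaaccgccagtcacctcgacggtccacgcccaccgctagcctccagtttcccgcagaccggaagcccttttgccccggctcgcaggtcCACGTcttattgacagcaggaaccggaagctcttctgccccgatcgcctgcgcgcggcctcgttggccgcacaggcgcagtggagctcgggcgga
SREBF2 (chr22:41832855-41833104, plus strand): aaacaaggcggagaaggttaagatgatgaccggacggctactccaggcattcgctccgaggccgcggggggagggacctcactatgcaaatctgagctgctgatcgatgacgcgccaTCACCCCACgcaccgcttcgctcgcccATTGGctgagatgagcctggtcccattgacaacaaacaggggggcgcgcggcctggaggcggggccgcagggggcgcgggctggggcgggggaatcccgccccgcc
MSMO1 (chr4:165327419-165327668, plus strand): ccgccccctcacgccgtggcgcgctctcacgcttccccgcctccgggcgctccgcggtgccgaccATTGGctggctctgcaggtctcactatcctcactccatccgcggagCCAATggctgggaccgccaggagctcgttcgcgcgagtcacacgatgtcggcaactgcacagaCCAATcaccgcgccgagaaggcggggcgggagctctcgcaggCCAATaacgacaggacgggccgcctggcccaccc
MVD (chr16:88663092-88663341, minus strand): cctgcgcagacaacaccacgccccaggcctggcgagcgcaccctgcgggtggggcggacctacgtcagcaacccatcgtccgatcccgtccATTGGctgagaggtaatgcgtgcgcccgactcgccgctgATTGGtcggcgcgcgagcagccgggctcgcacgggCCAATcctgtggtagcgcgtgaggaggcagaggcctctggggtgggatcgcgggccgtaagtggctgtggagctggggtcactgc
ELOVL6 (chr4:110198616-110198865, minus strand): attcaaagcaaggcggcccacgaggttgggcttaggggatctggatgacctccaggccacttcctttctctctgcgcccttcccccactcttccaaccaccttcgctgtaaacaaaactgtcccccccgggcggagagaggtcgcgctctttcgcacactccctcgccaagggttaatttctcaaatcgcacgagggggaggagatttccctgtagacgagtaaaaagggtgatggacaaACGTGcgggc
The INSIG1 stretch held a CCAAT box at -170, ACGTG at -196 and the palindrome CACGTG at -55, whereas the INSIG2 stretch held ACGTG at -95 and no CCAAT. SREBF2 held TCACNCCAC at -133 and CCAAT at -106. MSMO1 held 4 CCAAT boxes (at -185, -139, -76 and -34), MVD 3 (at -159, -120 and -85), and ELOVL6 only ACGTG at -10. Positions are counted in bases from the start to the leftmost letter of the match.

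**Figure D1:**
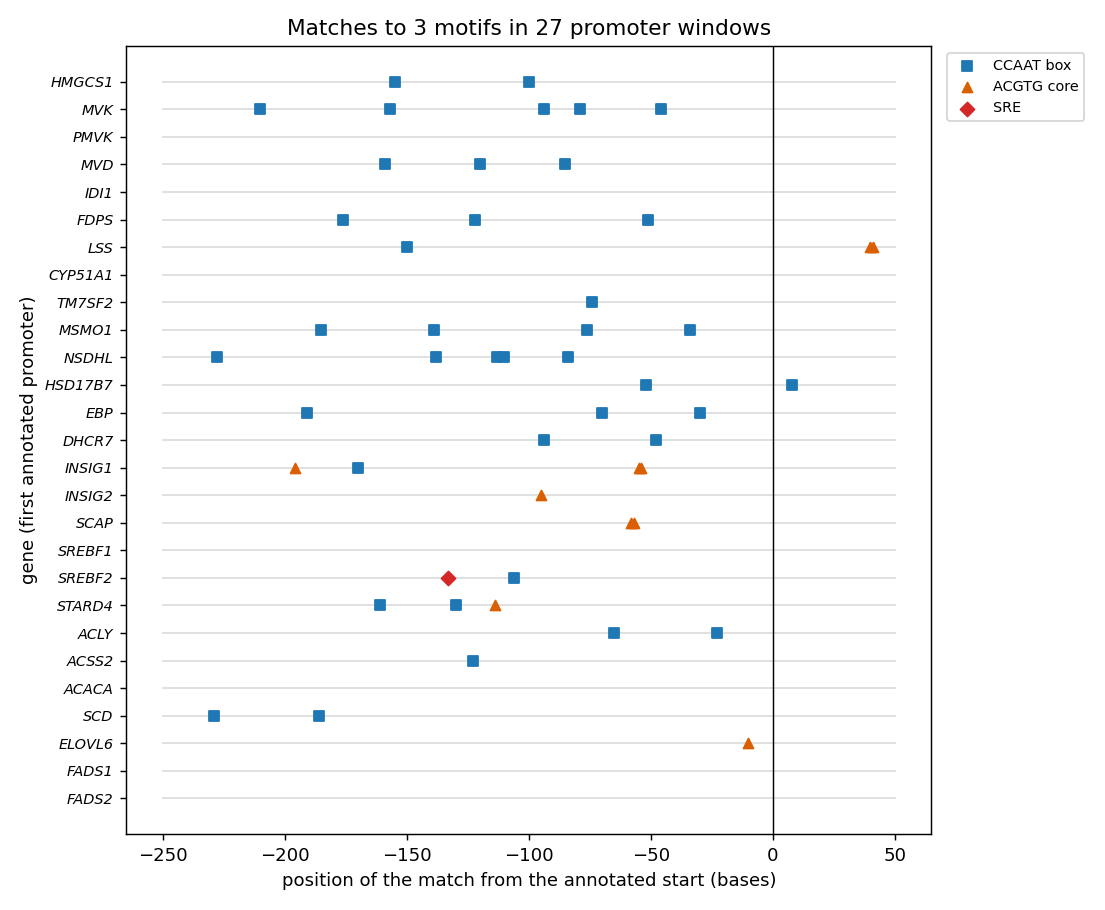
Position of each match to CCAAT (squares), ACGTG (triangles) and the SRE TCACNCCAC (diamond) along the first annotated promoter window of 27 genes, in bases from the annotated start. CCAAT boxes repeat in genes such as MVK, MSMO1, NSDHL and MVD, and the SRE match lies in SREBF2. Matches found only in a later window of a gene are not drawn.

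The INSIG genes, which hold SREBPs in the endoplasmic reticulum, both rose in all 4 lines, INSIG1 most and INSIG2 least in HIF1A-null. INSIG1 (chromosome 7, 155089486 to 155101945, plus strand, 6 exons, GRCh37) was at 90.9 and 65.9 CPM in normoxia and 162 and 181 CPM in hypoxia in shNT, a log2 change of 1.13 ± 0.20, adjusted p = 0.000372. In shTIP60 it went from 47.4 and 38.8 to 264 and 245 CPM (2.56 ± 0.21, adjusted p = 2.83e-07). For shCDK8, INSIG1 values went from 53.7 and 43 to 114 and 98.8 CPM (1.14 ± 0.20, adjusted p = 0.000825). HIF1A-null cells held 58.8 and 46.9 CPM in normoxia and 807 and 1188 CPM in hypoxia (4.24 ± 0.23, adjusted p = 9.22e-09). The hypoxic HIF1A-null libraries lay above all other libraries, and in each line hypoxia and normoxia did not overlap. INSIG2 (chromosome 2, 118846028 to 118868573, plus strand, 6 exons, GRCh37), the second INSIG gene, was at 11.1 and 11.8 CPM in normoxia and 112 and 153 CPM in hypoxia in shNT (3.53 ± 0.24, adjusted p = 3.3e-08). It went from 10.2 and 9.39 to 119 and 111 CPM in shTIP60 (3.56 ± 0.24). For shCDK8, INSIG2 values went from 8.43 and 11.3 to 69.4 and 94.4 CPM (3.05 ± 0.24), with hypoxic libraries above normoxic ones in both. In HIF1A-null it rose less, from 7.14 and 12.1 to 21.1 and 24.1 CPM (1.23 ± 0.23, adjusted p = 0.000593), and its hypoxic libraries lay below those of the other 3 lines. The response of HIF1A-null therefore exceeded that of shNT by 3.11 ± 0.29 for INSIG1 (adjusted p = 7.25e-06) and was lower, by a log2 difference of -2.30 ± 0.32 for INSIG2 (adjusted p = 0.000264).

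SREBF2, which encodes the SREBP of sterol synthesis (chromosome 22, 42229109 to 42303310, plus strand, 19 exons, GRCh37), rose in every line. It was at 333 and 342 CPM in normoxia and 563 and 489 CPM in hypoxia in shNT (0.64 ± 0.13, adjusted p = 0.00139). In shTIP60 it started lower, at 128 and 138 CPM, and reached 348 and 354 CPM (1.40 ± 0.14, adjusted p = 1.68e-06). In shCDK8 it went from 206 and 164 to 338 and 322 CPM (0.83 ± 0.14, adjusted p = 0.000392). HIF1A-null values of SREBF2 went from 321 and 285 to 686 and 677 CPM (1.17 ± 0.14, adjusted p = 1.06e-05). Hypoxia lay above normoxia in each line, and the normoxic shTIP60 libraries were the lowest of the 16. SREBF1, which encodes the SREBPs of fatty acid and general lipid synthesis, was at 573 and 455 CPM in normoxia and 796 and 705 CPM in hypoxia in shNT (0.55 ± 0.24, adjusted p = 0.0773). Its values were 603 and 438 and then 919 and 808 CPM in shTIP60 (0.73 ± 0.24, adjusted p = 0.0229), a call lost without shTIP60 normoxia library B or either hypoxia library (adjusted p up to 0.205). In shCDK8 they were 519 and 275 and then 619 and 513 CPM (0.51 ± 0.24, adjusted p = 0.128), where library A in normoxia lay above library B in hypoxia. In HIF1A-null SREBF1 rose from 720.5 and 578 to 1417 and 1385 CPM (1.11 ± 0.24, adjusted p = 0.00187). SCAP, the escort, was the sensing gene that rose in no line. It was at 122 and 107 CPM in normoxia and 90.7 and 78.1 CPM in hypoxia in shNT, where it fell by 0.44 on the log2 scale (SE 0.16, adjusted p = 0.0403), a call lost without either shNT normoxia library or hypoxia library B (adjusted p up to 0.23). SCAP held 122 and 114 and then 99.6 and 94.8 CPM in shTIP60, 148 and 106 and then 131 and 114 CPM in shCDK8, and 139.6 and 108 and then 106 and 103 CPM in HIF1A-null. None of these was called by edgeR or DESeq2, and 0 of 3 had an unadjusted p under 0.05. STARD4, a carrier of cholesterol between membranes, rose in all 4 lines. It went from 22.3 and 20.5 to 60.7 and 71.8 CPM in shNT (1.63 ± 0.24, adjusted p = 6.83e-05) and from 8.98 and 10.4 to 53.1 and 49.3 CPM in shTIP60 (2.40 ± 0.25). In shCDK8 it went from 12.2 and 15.2 to 33.6 and 34.8 CPM (1.32 ± 0.24). HIF1A-null values of STARD4 went from 20.0 and 29.6 to 108 and 203 CPM (2.65 ± 0.25), with hypoxic libraries above normoxic ones each time.

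**Figure D2:**
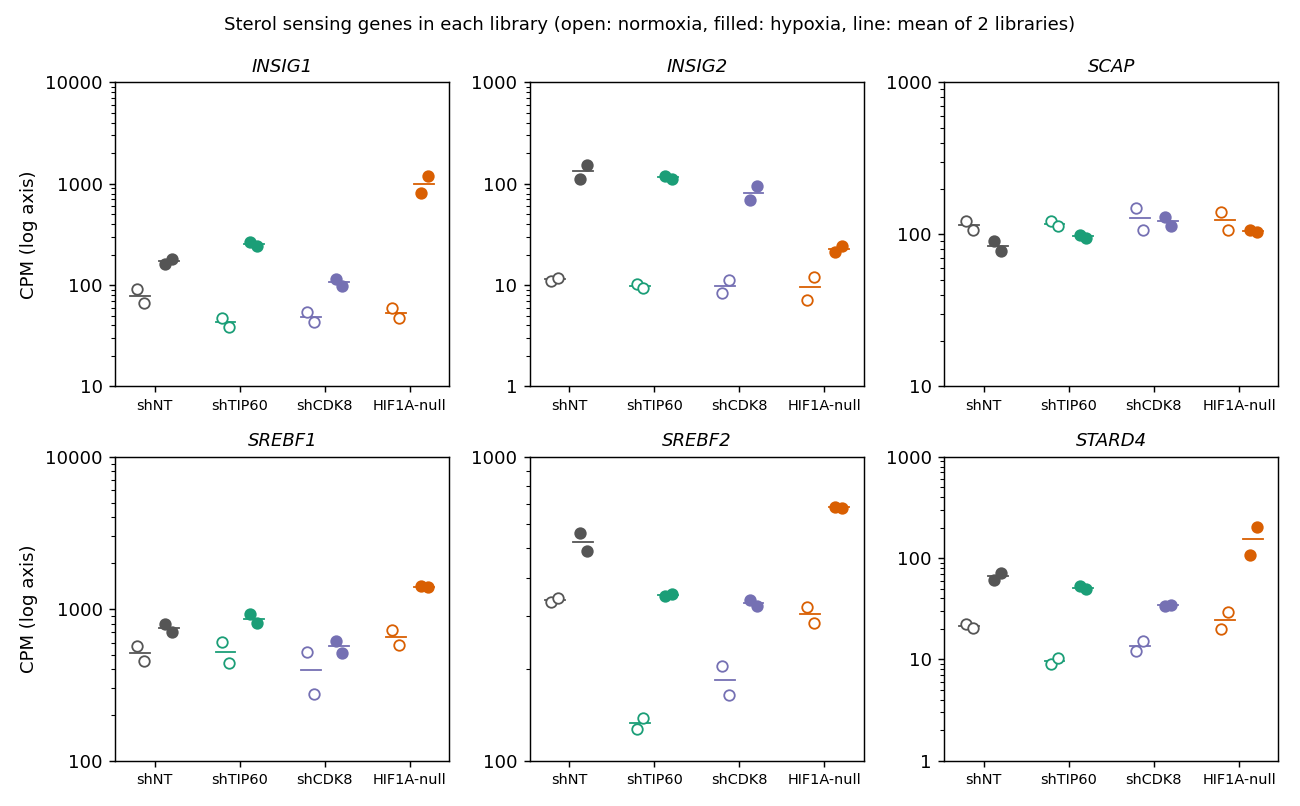
CPM (log axis) of the 6 sensing, transcription and transport genes in each of the 16 libraries; open points are normoxia, filled points hypoxia, and lines the mean of 2 libraries. INSIG1 reaches 807 and 1188 CPM in HIF1A-null hypoxia, where INSIG2 stays at 21.1 and 24.1 CPM, and SREBF2 is lowest in shTIP60 normoxia.

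The mevalonate steps build isoprenoid units from acetyl-CoA. Of 7 genes, 3 fell and 0 rose in shNT, 3 rose in shTIP60, none was called in shCDK8, and 6 rose and 1 fell in HIF1A-null. No mevalonate gene was higher in shNT, or changed either way in shCDK8, by DESeq2 or at an unadjusted p under 0.05 in edgeR. Over all genes 20.7% rose and 20.0% fell in shNT, and 19.4% and 19.8% in shTIP60. In shCDK8 13.8% and 11.0% did so, and in HIF1A-null 18.9% and 19.1%. HMGCS1, the synthase that makes HMG-CoA (chromosome 5, 43287572 to 43313614, minus strand, 11 exons, GRCh37), was at 109.7 and 103 CPM in normoxia and 64.7 and 67.4 CPM in hypoxia in shNT, where it fell (-0.69 ± 0.17, adjusted p = 0.00448). In shTIP60 it went from 48.1 and 53.2 to 68.2 and 81.8 CPM (0.57 ± 0.17, adjusted p = 0.0155), and in shCDK8 it held 47 and 50.4 and then 52.9 and 47.7 CPM (0.05 ± 0.17, adjusted p = 0.882). In HIF1A-null cells it went from 60.8 and 79.7 to 449 and 648 CPM (2.96 ± 0.18, adjusted p = 2.4e-08). The hypoxic libraries thus lay below normoxia in shNT, overlapped it in shCDK8, and lay above it in shTIP60 and HIF1A-null. IDI1, the isomerase of isopentenyl diphosphate, was at 94.6 and 79.7 CPM in normoxia and 64 and 63.2 CPM in hypoxia in shNT (-0.45 ± 0.14, adjusted p = 0.0192). It rose from 49.2 and 41.9 to 65.2 and 66.1 CPM in shTIP60 (0.53 ± 0.14). IDI1 also rose from 75 and 82 to 308 and 394 CPM in HIF1A-null (2.16 ± 0.15, adjusted p = 8.64e-08), and it held 47.7 and 56.2 and then 57.1 and 53.8 CPM in shCDK8, where the groups overlapped. MVD, the mevalonate diphosphate decarboxylase (chromosome 16, 88718343 to 88729569, minus strand, 10 exons, GRCh37), was at 139 and 101 CPM in normoxia and 132 and 76.2 CPM in hypoxia in shNT (-0.21 ± 0.23, adjusted p = 0.502), again with overlap. It went from 70.6 and 67.7 to 114 and 109 CPM in shTIP60 (0.69 ± 0.23, adjusted p = 0.0263). In shCDK8, MVD was at 126 and 105 and then 179 and 141 CPM (0.47 ± 0.23, adjusted p = 0.146). Levels rose from 148 and 104 to 742 and 738 CPM in HIF1A-null (2.55 ± 0.24, adjusted p = 1.62e-06). Of the remaining genes, FDPS, which makes farnesyl diphosphate (1.52 ± 0.16), MVK, mevalonate kinase (1.08 ± 0.20), and ACAT2, the cytosolic thiolase (0.90 ± 0.16), rose in HIF1A-null, whereas PMVK, phosphomevalonate kinase, fell from 55.1 and 54.4 to 35.8 and 32.4 CPM (-0.68 ± 0.15, adjusted p = 0.00192). ACAT2 fell in shNT (-0.84 ± 0.16). Leaving out a library ended the IDI1 call in shNT (without normoxia A or either hypoxia library, adjusted p up to 0.188). In shTIP60 it ended the calls of HMGCS1 (without normoxia A or hypoxia B, up to 0.151), IDI1 (without normoxia B or hypoxia B, up to 0.108) and MVD (without any 1 of the 4, up to 0.119).

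The steps from squalene to cholesterol include several oxygen-consuming enzymes. Of 10 genes, 3 fell in shNT (FDFT1, NSDHL and EBP), 6 rose in shTIP60, none was called in shCDK8 by edgeR or DESeq2 (2 at an unadjusted p under 0.05), and 7 rose and 1 fell in HIF1A-null. Over all genes 20.7% rose and 20.0% fell in shNT, and 19.4% and 19.8% in shTIP60. In shCDK8 13.8% and 11.0% did so, and in HIF1A-null 18.9% and 19.1%. FDFT1, squalene synthase, was at 228 and 206 CPM in normoxia and 156 and 142 CPM in hypoxia in shNT (-0.55 ± 0.15, adjusted p = 0.00998). This call was lost without shNT normoxia A or shNT hypoxia B (adjusted p up to 0.082). FDFT1 went from 100.4 and 96.5 to 165 and 158 CPM in shTIP60 (0.72 ± 0.15, adjusted p = 0.0018). In shCDK8, FDFT1 was at 158 and 150.5 and then 218 and 165 CPM (0.32 ± 0.15, adjusted p = 0.149). Levels rose from 158 and 166 to 619.7 and 819 CPM in HIF1A-null (2.15 ± 0.16, adjusted p = 1.61e-07). All 4 lines were thus free of overlap between oxygen levels for FDFT1, with shNT the line in which hypoxia was lower. MSMO1, the C4-methylsterol oxidase and an oxygen-consuming enzyme (chromosome 4, 166248819 to 166264316, plus strand, 6 exons, GRCh37), was at 46.9 and 51.5 CPM in normoxia and 54.9 and 95.1 CPM in hypoxia in shNT (0.61 ± 0.27, adjusted p = 0.0882). It went from 20.8 and 24.2 to 62.1 and 64.9 CPM in shTIP60 (1.5 ± 0.28, adjusted p = 0.000613). In shCDK8, MSMO1 was at 23.2 and 28.9 and then 34.3 and 36.8 CPM (0.45 ± 0.28, adjusted p = 0.26). Levels rose from 25.6 and 39.1 to 279 and 528 CPM in HIF1A-null (3.64 ± 0.30, adjusted p = 4.32e-07). Hypoxia lay above normoxia in each line, although library B exceeded library A in all 8 groups. CYP51A1, the oxygen-dependent lanosterol demethylase, overlapped in shNT at 61.4 and 53.3 CPM in normoxia and 56.1 and 52.9 CPM in hypoxia (-0.07 ± 0.16, adjusted p = 0.756). It rose from 29.4 and 29.2 to 45.7 and 47.4 CPM in shTIP60 (0.67 ± 0.16, adjusted p = 0.00398). CYP51A1 also rose from 40.4 and 42.9 to 123 and 189.7 CPM in HIF1A-null (1.91 ± 0.16, adjusted p = 6.45e-07), and held 34 and 35.6 and then 41.2 and 42.3 CPM in shCDK8 (0.26 ± 0.16, adjusted p = 0.25). SQLE, squalene epoxidase, rose in shTIP60 (0.44 ± 0.12) and HIF1A-null (1.02 ± 0.12), as did the reductase genes DHCR7 (0.87 ± 0.20 and 1.72 ± 0.21) and HSD17B7 (0.86 ± 0.22 and 1.17 ± 0.21). NSDHL, a C4-decarboxylating dehydrogenase, fell in shNT (-0.58 ± 0.14) and rose in HIF1A-null (0.48 ± 0.14), and EBP, the sterol isomerase, fell in shNT (-0.59 ± 0.18) and was not called in HIF1A-null (0.37 ± 0.18, adjusted p = 0.113). TM7SF2, a sterol C14-reductase, fell in HIF1A-null from 63.5 and 87.2 to 48.9 and 45.8 CPM (-0.67 ± 0.17, adjusted p = 0.00621), which with PMVK made it 1 of the 2 genes that fell there. LSS, lanosterol synthase, was between 0.01 ± 0.21 in shNT and 0.54 ± 0.21 in HIF1A-null. In shNT, leaving out normoxia A ended the NSDHL call (adjusted p = 0.0764), and normoxia A or hypoxia B the EBP call (up to 0.268). In shTIP60, SQLE was lost without normoxia A or hypoxia B (up to 0.101) and HSD17B7 without normoxia A (0.0813). In HIF1A-null, NSDHL was lost without normoxia B or hypoxia A (up to 0.0732) and TM7SF2 without normoxia B (0.0868).

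**Figure D3:**
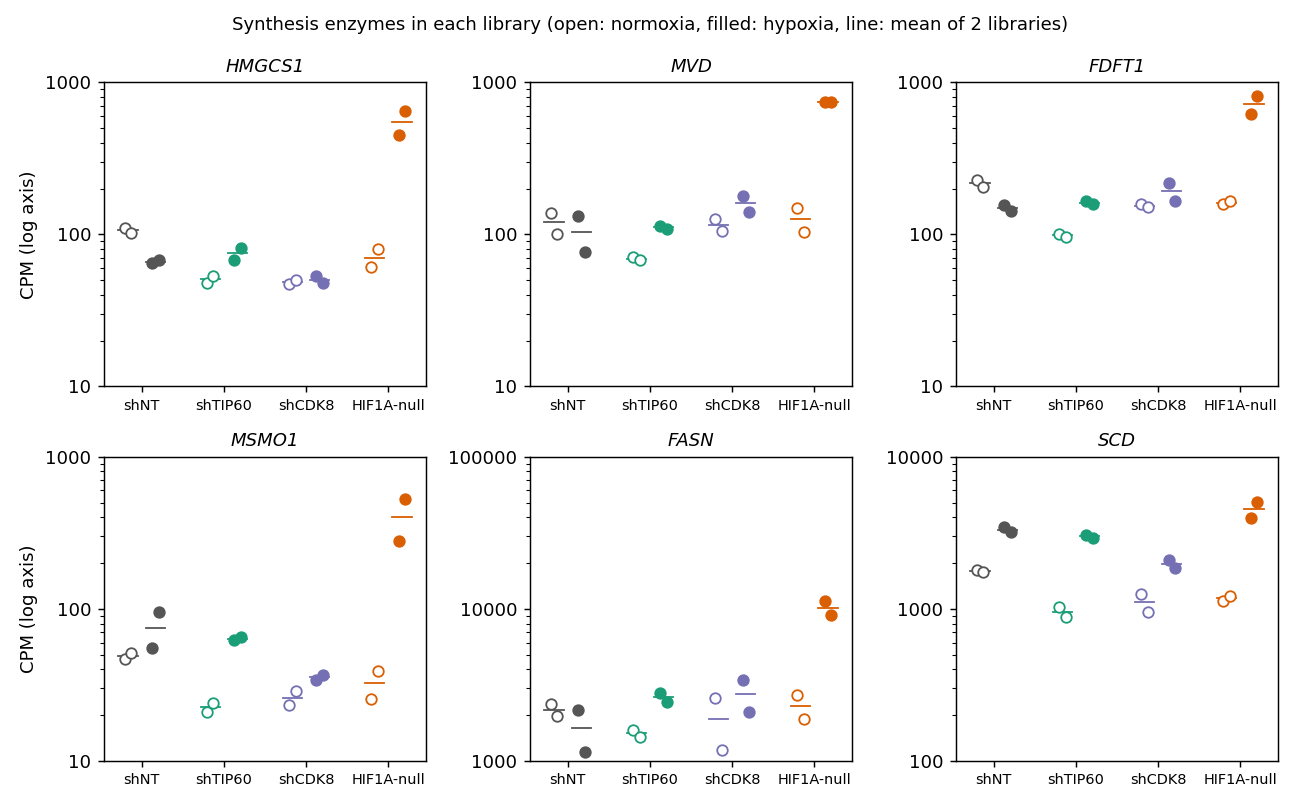
CPM (log axis) of 6 synthesis enzymes in each of the 16 libraries; open points are normoxia, filled points hypoxia, and lines the mean of 2 libraries. HMGCS1 and FDFT1 are lower in hypoxia in shNT and higher in HIF1A-null, and FASN in HIF1A-null hypoxia (11230 and 9128 CPM) lies above all other groups.

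Among the fatty acid genes, ACSS2 and SCD rose in all 4 lines, while ACLY and FASN rose in HIF1A-null alone among the edgeR calls. Of 8 genes, 2 rose and 2 fell in shNT, 3 rose and 1 fell in shTIP60, 2 rose and 1 fell in shCDK8, and 6 rose in HIF1A-null, where 0 fell by edgeR, by DESeq2 or at an unadjusted p under 0.05. The shNT counts, 25% each way, lay near those of all genes, of which 20.7% rose and 20.0% fell. Over all genes 19.4% and 19.8% did so in shTIP60, 13.8% and 11.0% in shCDK8, and 18.9% and 19.1% in HIF1A-null. ACSS2, the cytosolic enzyme that makes acetyl-CoA from acetate, was at 49.3 and 52.5 CPM in normoxia and 101 and 73.6 CPM in hypoxia in shNT (0.78 ± 0.14, adjusted p = 0.000517). It rose from 32.1 and 31.9 to 92.2 and 86.2 CPM in shTIP60 (1.48 ± 0.15, adjusted p = 2.01e-06). In shCDK8, ACSS2 was at 30.6 and 26.2 and then 62.2 and 55.8 CPM (1.06 ± 0.15, adjusted p = 0.00011). Levels rose from 34.7 and 38.9 to 178 and 172 CPM in HIF1A-null (2.25 ± 0.15, adjusted p = 6.52e-08), with no overlap in any line. SCD, the oxygen-consuming desaturase of stearoyl-CoA, was at 1801 and 1739 CPM in normoxia and 3433 and 3184 CPM in hypoxia in shNT (0.90 ± 0.16, adjusted p = 0.000315). It rose from 1029 and 882 to 3080 and 2943 CPM in shTIP60 (1.66 ± 0.16). In shCDK8, SCD was at 1256 and 955 and then 2081 and 1842 CPM (0.83 ± 0.16). Levels rose from 1127 and 1216 to 3972 and 5065 CPM in HIF1A-null (1.95 ± 0.16), again without overlap. FASN, the fatty acid synthase (chromosome 17, 80036214 to 80056170, minus strand, 43 exons, GRCh37), varied widely between libraries of a group. It was at 2356 and 1966 CPM in normoxia and 2147 and 1150 CPM in hypoxia in shNT (-0.39 ± 0.33, adjusted p = 0.37) and at 2584 and 1172 CPM in normoxia and 3400 and 2103 CPM in hypoxia in shCDK8 (0.55 ± 0.33, adjusted p = 0.244), both with overlap. In shTIP60 it went from 1593 and 1446 to 2794 and 2437 CPM (0.78 ± 0.33, adjusted p = 0.0729), without overlap but not called, and in HIF1A-null from 2729 and 1873 to 11230 and 9128 CPM (2.15 ± 0.34, adjusted p = 0.000184). ACACA, acetyl-CoA carboxylase, which supplies malonyl-CoA, fell in shNT from 264 and 258 to 208 and 175 CPM (-0.45 ± 0.15, adjusted p = 0.0226), a call lost without either normoxia library or hypoxia library B (adjusted p up to 0.179). In HIF1A-null ACACA rose from 250 and 225 to 372 and 408 CPM (0.72 ± 0.15, adjusted p = 0.00133), and it was at 182 and 178 and then 171 and 175 CPM in shTIP60 and at 253 and 221 and then 263 and 197 CPM in shCDK8. ACLY, ATP citrate lyase, which makes cytosolic acetyl-CoA from citrate, held 463 and 411 and then 477 and 358 CPM in shNT, 329.5 and 314 and then 397 and 380.4 CPM in shTIP60, and 432 and 319 and then 513 and 439.7 CPM in shCDK8, none of them called. ACLY rose in HIF1A-null from 441 and 348 to 918 and 849 CPM (1.16 ± 0.18, adjusted p = 0.000111). ELOVL6, an elongase of saturated and monounsaturated fatty acids, fell in shNT (-0.67 ± 0.15), shTIP60 (-0.42 ± 0.14) and shCDK8 (-0.49 ± 0.15), and was at -0.30 ± 0.15 in HIF1A-null (adjusted p = 0.122). FADS1, a polyunsaturated fatty acid desaturase, rose in shTIP60 (0.55 ± 0.14) and HIF1A-null (0.53 ± 0.14). The ELOVL6 call was lost in shTIP60 without any 1 of the 4 libraries (adjusted p up to 0.168) and in shCDK8 without library B of either oxygen level (up to 0.287), and the FADS1 call in shTIP60 without hypoxia library A (0.0501).

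The 3 altered lines were also compared with shNT within normoxia. In shTIP60, 18 of 31 genes were lower than in shNT and 0 were higher, with a median log2 difference of -0.62, against 8.13% of all genes lower and 10.3% higher. In shCDK8, 13 were lower and 0 higher (median -0.47; 7.27% and 5.80% of all genes), and in HIF1A-null 5 were lower and 1 higher (median -0.16; 5.86% lower and 5.86% higher). Neither knockdown had a higher gene at an unadjusted p under 0.05 or by DESeq2. In shTIP60 the lower genes comprised 6 of 7 of the mevalonate steps, 6 of 10 of the cholesterol steps, 3 of 6 of the sensing genes and 3 of 8 of the fatty acid genes. SREBF2 differed most, at 128 and 138 CPM against 333 and 342 CPM in shNT (-1.34 ± 0.14, adjusted p = 3.73e-06), followed by FDFT1 (-1.14 ± 0.16, adjusted p = 8.02e-05), STARD4 (-1.14 ± 0.25), MSMO1 (-1.13 ± 0.28) and HMGCS1 (-1.07 ± 0.17, adjusted p = 0.000368). 10 genes were lower in both knockdowns: HMGCS1, IDI1, FDFT1, SQLE, CYP51A1, MSMO1, INSIG1, SREBF2, ACSS2 and SCD. Both comparisons use the same shNT libraries, so they are not independent. The share of all genes lower in both knockdowns was not counted. In shCDK8, HMGCS1 was at -1.13 ± 0.17, SQLE at -0.93 ± 0.12, SREBF2 at -0.87 ± 0.14, ACSS2 at -0.84 ± 0.15 and FADS1 at -0.81 ± 0.14. In HIF1A-null the lower genes were HMGCS1 (-0.60 ± 0.17), SQLE (-0.57 ± 0.12), ACSS2 (-0.47 ± 0.14), SCD (-0.59 ± 0.16) and ELOVL6 (-0.65 ± 0.14). TM7SF2 was higher, at 63.5 and 87.2 CPM against 41.3 and 52.1 CPM (0.69 ± 0.17, adjusted p = 0.0137). The STARD4 call in shTIP60 was lost without shTIP60 normoxia A, MSMO1 without shNT B or shTIP60 A, and INSIG1 without shNT A or shTIP60 B. Also lost were PMVK without library B of either line, and ACAT2 without shNT A or shTIP60 B. HSD17B7 was lost without either shNT library or shTIP60 A. MVK, MVD and EBP were lost without shNT A or either shTIP60 library, and ACACA without any 1 of the 4. In shCDK8 the calls of FDFT1, MSMO1 and ELOVL6 were lost without any 1 of the 4 libraries, and CYP51A1 without shNT A. INSIG1 and SCD were lost without shNT A or shCDK8 B, and TM7SF2 without shNT B or shCDK8 B. Calls of SCD and ACSS2 in HIF1A-null were lost without any 1 of the 4, and HMGCS1 without either shNT library or HIF1A-null A. ELOVL6 was lost without HIF1A-null A, and TM7SF2 without shNT A or HIF1A-null B. Against a 1.5-fold change, 4, 2 and 0 genes were called, all of them lower than shNT, and 1.57%, 2.47% and 1.92% of all genes were called lower. Without shNT normoxia library A fewer members were called in each of the 3 lines, and fewer of all genes were called as well. The same held when either normoxia library of the altered line was left out.

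**Figure D4:**
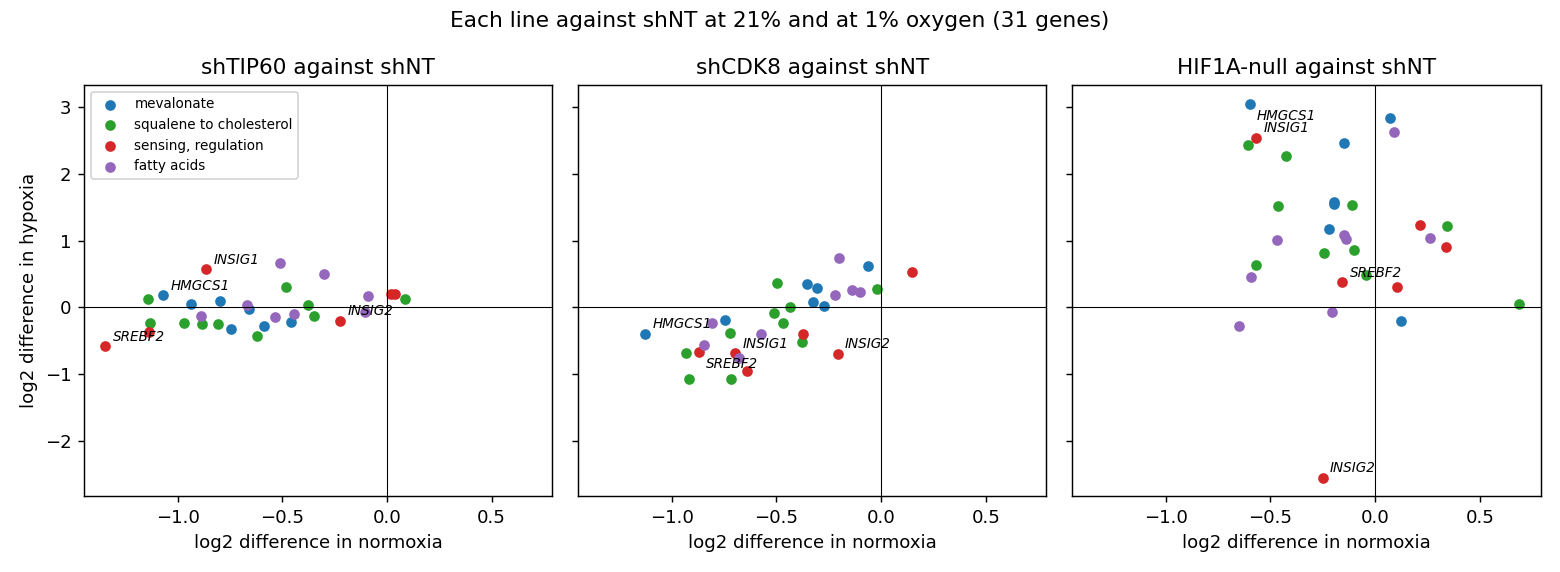
Log2 difference of each altered line from shNT in normoxia (horizontal axis) and in hypoxia (vertical axis), 1 point per gene, coloured by role, with 4 genes named; both axes share the shNT line but not its libraries. For shTIP60, 28 of 31 points lie to the left of 0, and they range vertically from -0.58 (SREBF2) to 0.67 (FASN), while those of HIF1A-null reach 3.05 (HMGCS1) upward and -2.55 (INSIG2) downward.

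Within hypoxia, 24 of 31 genes in HIF1A-null were higher than in shNT and 1 was lower, with a median log2 difference of 1.04, against 20.3% of all genes higher and 20.8% lower. In shTIP60 1 was higher and 1 lower (median -0.06; 11.3% and 10.5% of all genes), so that 17 of the 18 genes lower in normoxia were not called. In shCDK8 1 was higher and 9 were lower (median -0.23; 14.4% and 13.4% of all genes). The higher genes in HIF1A-null were led by HMGCS1, at 449 and 648 CPM against 64.7 and 67.4 CPM (3.05 ± 0.18, adjusted p = 6.31e-09), MVD (2.83 ± 0.24, adjusted p = 3.26e-07), FASN (2.63 ± 0.35, adjusted p = 2.6e-05) and INSIG1 (2.54 ± 0.21, adjusted p = 2.02e-07). The lower gene was INSIG2, at 21.1 and 24.1 CPM against 112 and 153 CPM (-2.55 ± 0.23, adjusted p = 4.81e-07). In shTIP60 SREBF2 remained lower (-0.58 ± 0.13, adjusted p = 0.00528) and FADS1 was higher (0.49 ± 0.14, adjusted p = 0.017). In shCDK8 the sensing genes SREBF2 (-0.67 ± 0.13), INSIG1 (-0.69 ± 0.20), INSIG2 (-0.69 ± 0.21) and STARD4 (-0.95 ± 0.24) were lower and SCAP was higher (0.54 ± 0.16), so that 5 of 6 sensing genes differed. MSMO1 (-1.08 ± 0.28), TM7SF2 (-1.07 ± 0.18), SQLE (-0.69 ± 0.12), SCD (-0.75 ± 0.16) and ACSS2 (-0.56 ± 0.14) were lower too, and no mevalonate gene was called (2 at an unadjusted p under 0.05, 1 by DESeq2). Without hypoxia library B of shNT or library A of shCDK8, fewer members than these 10 were called in shCDK8. Fewer of all genes were called as well. The calls lost in both cases were MSMO1, INSIG1, INSIG2, SCAP and STARD4 (adjusted p up to 0.169, 0.128, 0.24, 0.172 and 0.0614), and ACSS2 was lost without shNT A or shCDK8 B (up to 0.128), as was INSIG1 without shCDK8 B. The SREBF2 call in shTIP60 was lost without shTIP60 hypoxia A (0.0535). Without hypoxia library A or B of shTIP60 fewer members than these 2 were called in shTIP60, and fewer of all genes. The FADS1 call was lost without either of them or without shNT hypoxia B. In HIF1A-null the SREBF2 call (0.37 ± 0.13, adjusted p = 0.0349) was lost without shNT hypoxia B or either HIF1A-null library (adjusted p up to 0.21). The same held for the SCD call (0.45 ± 0.16) without either shNT library or HIF1A-null library B (up to 0.283).

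Whether a line responded to hypoxia differently from shNT was tested directly, as an interaction. In HIF1A-null 21 of 31 genes responded more positively than in shNT and 1 more negatively, with a median difference of 1.17, against 7.53% and 8.92% of all genes. By role, the more positive genes were 6 of 7 of the mevalonate steps, 7 of 10 of the cholesterol steps, 2 of 6 of the sensing genes and 6 of 8 of the fatty acid genes. HMGCS1 differed most (3.65 ± 0.25, adjusted p = 5.91e-07), then INSIG1 (3.11 ± 0.29), MSMO1 (3.03 ± 0.39, adjusted p = 0.00015), MVD (2.76 ± 0.33), FDFT1 (2.70 ± 0.22, adjusted p = 2.74e-06), IDI1 (2.61 ± 0.21) and FASN (2.54 ± 0.47, adjusted p = 0.00228). SREBF1 (0.56 ± 0.33, adjusted p = 0.269), SREBF2 (0.53 ± 0.19, adjusted p = 0.0679) and SCAP (0.21 ± 0.23, adjusted p = 0.591) did not pass the test. The STARD4 call (1.02 ± 0.33, adjusted p = 0.0473) was lost when any 1 of 6 of the 8 libraries was left out (each shNT library, HIF1A-null normoxia A and hypoxia B; adjusted p up to 0.264). So was the EBP call (0.96 ± 0.25) without shNT normoxia A, HIF1A-null normoxia B or shNT hypoxia B (up to 0.111). The same held for the FADS1 call (0.78 ± 0.19) without shNT normoxia A or hypoxia B (up to 0.0529).

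For shTIP60 the same test called 0 of 31 genes with edgeR, and over all genes 0.00644% were called higher and 0.0258% lower. At an unadjusted p under 0.05, 16 of the 31 were more positive than shNT and 0 less positive, against 2.84% of all genes more positive. The difference was above 0 for all 31 members (median 0.63) and for 49.1% of all genes. FDFT1 (1.26 ± 0.22, adjusted p = 0.0512), HMGCS1 (1.25 ± 0.24, adjusted p = 0.0722), INSIG1 (1.43 ± 0.28, adjusted p = 0.0824) and IDI1 (0.98 ± 0.20, adjusted p = 0.0972) came closest. DESeq2 called 7: HMGCS1, IDI1, FDFT1, SQLE, INSIG1, SREBF2 and FADS1, all more positive, where it called 0.228% of all genes so. For shCDK8 edgeR called 0, with 0.00644% of all genes called higher and 0.0322% lower. At an unadjusted p under 0.05, 6 were more positive and 0 less positive, against 5.98% of all genes more positive. DESeq2 called FDFT1 (edgeR 0.86 ± 0.22, adjusted p = 0.152) and 0.788% of all genes more positive. The median difference was 0.33, and 24 of 31 lay above 0, against 52.3% of all genes. With no filter on low counts edgeR called 7 members in shTIP60 and 2 in shCDK8, all more positive, against 0.264% and 1.13% of all genes. Fitted on only the groups compared it called 4 and 0 (0.158% and 0.00672% of all genes more positive). A block by library-number series, chosen after seeing the data, gave 7 and 6, all more positive. Of all 15520 genes, 40 and 330 were then called more positive. The 3 differences share the shNT libraries. They also share 1 estimate of the spread, although libraries A and B differed by unequal amounts. Chi-square per degree of freedom in normoxia and hypoxia was 8.9 and 11.35 in shTIP60, and 21.76 and 43.65 in shNT. It was 48.87 and 20.18 in shCDK8, and 68.34 and 49.1 in HIF1A-null. Fitted on only the groups compared, HIF1A-null had 18 members more positive and 1 more negative, against 424 and 606 of 14978 genes.

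Genes next to this pathway that are not among the 31 were counted from 4 lists. For reference, 20.7% of all genes rose and 20.0% fell in shNT, and 19.4% and 19.8% in shTIP60. The shares were 13.8% and 11.0% in shCDK8, and 18.9% and 19.1% in HIF1A-null. Of 16 genes of SREBP processing and degradation, 2 rose and 4 fell in shNT, 2 and 6 in shTIP60, 2 and 4 in shCDK8, and 5 and 2 in HIF1A-null. SYVN1, a ubiquitin ligase of the endoplasmic reticulum, rose in shNT (1.20 ± 0.13), shTIP60 (1.44 ± 0.13), shCDK8 (1.18 ± 0.13) and HIF1A-null (1.06 ± 0.13). Of 10 genes of sterol export, esterification and the sterol receptor LXR, 3 rose and 1 fell in shNT, 1 and 1 in shTIP60, and 2 and 2 in HIF1A-null, with 1 rising in shCDK8. NPC1, which moves cholesterol out of lysosomes, rose in shNT (1.04 ± 0.12), shTIP60 (1.52 ± 0.12), shCDK8 (1.20 ± 0.12) and HIF1A-null (2.02 ± 0.12). Of 13 tested genes among other isoprenoid and sterol enzymes, 1 rose and 5 fell in shNT, 2 and 4 in shTIP60, 1 and 4 in shCDK8, and 3 and 3 in HIF1A-null. Of 26 tested genes of other fatty acid and glycerolipid synthesis, 6 rose and 7 fell in shNT, 8 and 5 in shTIP60, 6 and 3 in shCDK8, and 12 and 6 in HIF1A-null. GPAM, which starts glycerolipid synthesis, fell in all 4 lines, from -1.66 ± 0.13 in shNT to -1.01 ± 0.12 in HIF1A-null, and LPIN2, a phosphatidate phosphatase, rose in shNT (1.31 ± 0.14), shTIP60 (1.31 ± 0.15) and shCDK8 (0.88 ± 0.14). LPIN1, another phosphatidate phosphatase, rose in shNT (0.90 ± 0.14), shTIP60 (1.98 ± 0.14), shCDK8 (1.18 ± 0.14) and HIF1A-null (3.31 ± 0.15, adjusted p = 2.42e-09). ELOVL3, an elongase of very long chains, fell in all 4 lines, with -1.03 ± 0.20 in shNT and -3.11 ± 0.23, adjusted p = 1.41e-07 in HIF1A-null. In the response difference of HIF1A-null to shNT, the first list had 2 genes that were more positive, and the others 1 more positive and 2 more negative, 4 and 1, and 8 and 3. Of all genes, 7.53% were more positive and 8.92% more negative. The largest differences were in LPIN1 (2.41 ± 0.20), ELOVL3 (-2.08 ± 0.30) and ABCG1, a sterol exporter (-2.02 ± 0.33).

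Some counts are uncertain because the strand setting of the counting is not given in the sources used here. In GENCODE release 44 on GRCh37, exons of 10 of the 31 genes overlap exons of another gene in the count table: MVK, IDI1, FDPS, ACAT2, CYP51A1, TM7SF2, SREBF1, STARD4, FADS1 and FADS2. FADS1 and FADS2 overlap each other on opposite strands, and SREBF1 overlaps RAI1. IDI1, FDPS, CYP51A1, HSD17B7 and SCD also have annotated pseudogenes whose reads could be split from theirs.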

How the data were processed

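Poly(A) RNA of 16 HCT116 libraries (4 lines, 2 oxygen levels, 2 libraries per group) was sequenced on an Ion Torrent Proton, per the labels' protocols. The authors deposited 1 table of whole-number read counts per gene, not normalized. The submitters' processing notes name GSNAP, HTSeq 0.5.4p5, DESeq 1.14.0, R 3.0.3 and the build hg19 (GRCh37). The gene annotation and strand setting are not given in the sources used here.

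Counts were tested in R 4.3.3 with edgeR 4.0.16 (limma 3.58.1): the edgeR filter on low counts (minimum count 10, minimum total 15) kept 15520 of 23669 genes, scaled by trimmed mean of M-values, and a robust quasi-likelihood fit used the 16 libraries together, with a coefficient for each group (8 residual degrees of freedom). Benjamini-Hochberg adjustment ran over all genes tested, with a threshold of 0.05, in 13 comparisons. The tests were checked on simulated data. Libraries held 26620086 to 39401494 counts, and the floor of 3 counts covers counting error only.

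Values in every library are given for the 6 regulators and, in each role group of enzymes, for those with the 3 smallest p-values over the response differences or over the hypoxia comparisons. Other lists are named by up to 3 called genes of largest change per comparison. 1 gene that this rule names is not reported here. The members and lists were chosen with earlier results of these data known. Columns were labelled by library number, from which A and B are named; they carry no replicate number. Sequence of 250 bases before to 50 after each start came from RefSeq (GRCh38.p14), and gene positions from GENCODE release 44 on GRCh37. Alternatives were DESeq2 1.42.0, its size factors (RLE), library totals, no filter, a mean of at least 5 CPM, a test against 1.5-fold, only the groups compared, each library left out, and a block by library-number series, which was chosen after seeing the data.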

Additional observations from a re-analysis of the deposited data

Results flagged for a closer look

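The hypoxia response of HIF1A-null cells differed from that of shNT cells, by edgeR's test of the difference itself, for 22 of the 31 genes. Among the mevalonate genes the log2 difference in response was 3.65 for HMGCS1, 2.76 for MVD, 2.61 for IDI1, 1.78 for FDPS, 1.74 for ACAT2 and 1.39 for MVK. Among the cholesterol genes it was 3.03 for MSMO1, 2.70 for FDFT1, 1.98 for CYP51A1, 1.64 for DHCR7, 1.20 for SQLE, 1.06 for NSDHL and 0.96 for EBP. Among the sensing genes it was 3.11 for INSIG1, 1.02 for STARD4 and -2.30 for INSIG2, the gene with the opposite sign. Among the fatty acid genes it was 2.54 for FASN, 1.47 for ACSS2, 1.23 for ACLY, 1.17 for ACACA, 1.04 for SCD and 0.78 for FADS1. By the same test 0 genes were called in shTIP60 and shCDK8, where 16 and 6 had an unadjusted p under 0.05 and DESeq2 called 7 and 1.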

How the results depend on the processing

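No gene changed direction while called under any alternative run. Counts of called members moved by over 1.5 times as follows. With no filter they were 12 for hypoxia in shCDK8, 5 for shTIP60 against shNT in hypoxia, and 7 and 2 for the response differences of shTIP60 and shCDK8. Against a 1.5-fold change they were 3, 7 and 4 for hypoxia in shNT, shTIP60 and shCDK8, 4, 2 and 0 for shTIP60, shCDK8 and HIF1A-null against shNT in normoxia, and 0 and 1 for shTIP60 and shCDK8 in hypoxia. Fitting only the groups compared gave 1 for HIF1A-null in normoxia, 4 for shTIP60 in hypoxia and 4 for the response difference of shTIP60. DESeq2 gave 7 and 1 for the response differences of shTIP60 and shCDK8. The number of all genes called changed in these runs too. The cause of these shifts was not tested.

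Leaving out 1 library at a time gave 9 to 19 calls for hypoxia in shNT, 12 to 14 in shTIP60, 6 to 10 in shCDK8 and 24 to 27 in HIF1A-null. It gave 11 to 14, 7 to 11 and 2 to 3 for shTIP60, shCDK8 and HIF1A-null against shNT in normoxia, and 0 to 3, 6 to 12 and 23 to 25 in hypoxia. The response differences gave 0, 0 and 19 to 22. The number of all genes called changed in these runs too. A group left with 1 library was assumed to vary like the others.

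The columns carry no replicate number, so the replicate block used the library-number series. The A minus B deviations of 28 pairs of groups correlated at 0.031 to 0.336 (median 0.119, 18 over 0.1), and the libraries were not treated as paired. With the block, counts were 16 for hypoxia in shCDK8, 10 for HIF1A-null in normoxia, 5 and 20 for shTIP60 and shCDK8 in hypoxia, and 7 and 6 for the response differences of shTIP60 and shCDK8. Calls over all 15520 genes rose too. For hypoxia in shCDK8 the block called 2968 higher and 2610 lower, against 2135 and 1713 without it. For HIF1A-null in normoxia it called 1462 and 1497, against 910 and 909. In hypoxia it called 2552 and 2436 for shTIP60 (1755 and 1628 without it), and 3187 and 2851 for shCDK8 (2241 and 2084).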

Other observations

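Libraries A and B come from separate series of library numbers. Library A was above library B in all 8 groups for 9 of the 31 genes (29.0%): MVD, FDPS, LSS, NSDHL, SCAP, SREBF1, ACLY, FASN and FADS1. Over all genes tested this held for 1071 (6.90%). Library B was above library A in all 8 groups for MSMO1 and HSD17B7 (6.45% of the members), against 6.42% of all genes.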
